A study of Zea mays with 46 samples.

Results

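P1 is a maize R2R3-MYB transcription factor, and the regions described here are the places in naked maize DNA where tagged P1 gave a DAP-seq peak while 3 other maize MYB factors, MYB40, MYB53 and MYB100, gave none. They were chosen by the positions of the deposited peaks: a P1 peak was kept when it shared no base with any peak of the other 3 lists. Of 84227 P1 peaks, 49760 (59.1%) met that rule and 34467 (40.9%) did not. In DAP-seq a factor with a Halo tag, made in the test tube, is mixed with fragments of genomic DNA, and the fragments it holds are sequenced. DNA for all DAP-seq lists used here came from leaves of B73 x A632 F1 seedlings 2 weeks old, although the growth text of the same labels names B73xMo17. It carried no methylation for P1, MYB53 and MYB100 and kept its methylation for MYB40, so the MYB40 list differs from the others in the DNA as well as in the factor. The reads differ too, with lengths of 50 and 150 bases for MYB40 and of 50 bases for P1, MYB53 and MYB100. The lists also differ in length, with 106272 peaks for MYB53, 10181 for MYB100 and 7328 for MYB40. The label of these regions as sites of P1 without another MYB therefore covers these 3 factors alone, and a list with few peaks can mark few sites as shared.

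Plant R2R3-MYB proteins bind DNA through paired helix-turn-helix repeats, and related members can recognise closely similar, AC-rich elements. P1 is known for switching on the flavonoid genes that give red phlobaphene pigments in pericarp and cob, and insect-deterring flavones in silk. Sites in naked DNA show what the protein can bind when no chromatin is present, whereas ChIP-seq, in which an antibody pulls down the factor with its DNA from cells, shows where it was found in living tissue. The series holds 46 samples, of which 16 have a peak list used here, 14 from DAP-seq and 2 from ChIP-seq. Both ChIP-seq lists were made with a serum antibody against P1. One came from leaf protoplasts of etiolated B73 x A632 F1 seedlings 12 days old, with leaves pooled from several seedlings and 35S:P1 put in by electroporation. That construct drives P1 from a strong viral promoter in a tissue that is not silk or pericarp. The other came from B73 x A632 F1 silk at silking stage and was called against material with P1-ww, an allele for colourless pericarp and cob, listed as the inbred A619. For the protoplast samples the titles and the treatment fields name antibody and input the other way round, and the treatment field was followed. Each factor and each tissue has 1 deposited list with no replicates apart, so no test between groups was possible. Intervals below are 95% exact binomial intervals and cover counting error only, since neighbouring peaks are not independent. For a count of 0 the upper limit given is 3 counts of the total, which is lower than the exact interval's upper end. No genome sequence of the build of these files was at hand, so the regions are given by position on B73 RefGen_v4 and no bases, motifs or genes are shown.

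Among the P1 peaks outside the rule, nearly all were shared with MYB53, which touched 31552 P1 peaks (37.5%). MYB40 touched 5814 (6.90%) and MYB100 4933 (5.86%). Read from the other side, 79.2% of the MYB40 peaks, 52.1% of the MYB100 peaks and 35.2% of the MYB53 peaks touched a P1 peak. The MYB40 peaks that touched P1 had a deposited score, of unstated scale, with a median of 13 and a highest value of 127, against 12 and 30 for the 1522 MYB40 peaks that did not. MYB40 alone marked 2822 P1 peaks as shared, MYB100 alone marked 80, and MYB53 alone marked 24409. The 676 P1 peaks that carried all 3 other MYBs were 0.803% of the list.

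Few peaks lay close to the limit between shared and unshared sites. In the shared group the median overlap was 200 bases, and 92.7% had 100 bases or more in common with a MYB peak. Only 214 peaks were shared by 10 bases or fewer, and 281 unshared peaks lay less than 10 bases from a MYB peak. The unshared sites lay a median of 1995 bases from the nearest peak of any of the 3 MYBs (quartiles 643 and 6134). Their median distance was 2165 bases to MYB53, 61016 to MYB100 and 82594.5 to MYB40. A MYB peak lay within 1000 bases of 16679 of them (33.5%), so a site without a shared base was often not far from a MYB site.

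In width the P1 peaks were mostly of a single size. Of the unshared sites 64.7% were exactly 202 bases wide, against 59.5% of the shared ones, and the mean width was 221 against 231 bases. Wider P1 peaks met a MYB peak more often: 61.1% of peaks of 201 to 202 bases were unshared, 47.8% of those of 301 to 400 bases, and 36.1% of those of 401 to 883 bases. A wider peak has more bases that can be shared, so width and the rule cannot be told apart here. The widest unshared sites were chr3:133903820-133904702 with 883 bases, chr9:104678234-104678870 with 637 and chr8:152524049-152524672 with 624. The first of these also held peaks of CPP8, DOF23, DOF3 and HSF24 and lay 363 bases from a MYB40 peak.

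Along the genome the unshared sites followed the P1 list as a whole. Their share of P1 peaks was 58.4% to 60.4% on the 10 chromosomes, lowest on chromosome 10 and highest on chromosome 6, at 22.6 to 24.6 sites per Mb up to the last peak of each chromosome. It was also even along the chromosomes, with 58.3% to 60.1% in each 10% of their length. The median gap from an unshared site to the next unshared site was 4382 bases, and 21.9% lay within 1000 bases of another. In 100 kb windows that held any, the median number was 3 and the highest 16. The densest window, by position the first of 2 with 16, was chr1:220700001-220800000, where 16 of 20 P1 peaks were unshared. Its sites ran from chr1:220704721-220704922 to a last end at 220791933, with a median gap of 3364 and a smallest gap of 48 bases. The first 5 in order of position began with the one just named, which also held CPP8, DOF23 and WRKY38, then chr1:220716594-220716795, chr1:220721440-220721641 and chr1:220721754-220721957, which were in no other list, and chr1:220722755-220723185, which held CPP8. None of the 16 was in a ChIP-seq list, against 4.99% of all unshared sites. Of the 16, 8 held a factor that is not a MYB, against 52.3% of all unshared sites. Both counts lay near those shares and did not set the window apart.

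The deposited P1 list is not sorted by position throughout, and the order of its lines is not explained in the sources used here. In that order the share of unshared sites rose from the start to the end of the list. With the list cut into 10 equal parts, it was 30.8% in the first part, 44.7% in the second, 62.0% in part 5 and 71.6% in the last. Each part stood above the one before it. The share of P1 peaks touched by MYB53 fell over the same lines from 60.7% to 27.9%, that by MYB100 from 18.0% to 2.72%, and that by MYB40 from 25.3% to 0.641%. Mean width of the unshared sites fell from 240 to 215 bases as well, so place in the list, width and sharing moved together and their parts were not separated.

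**Figure D1:**
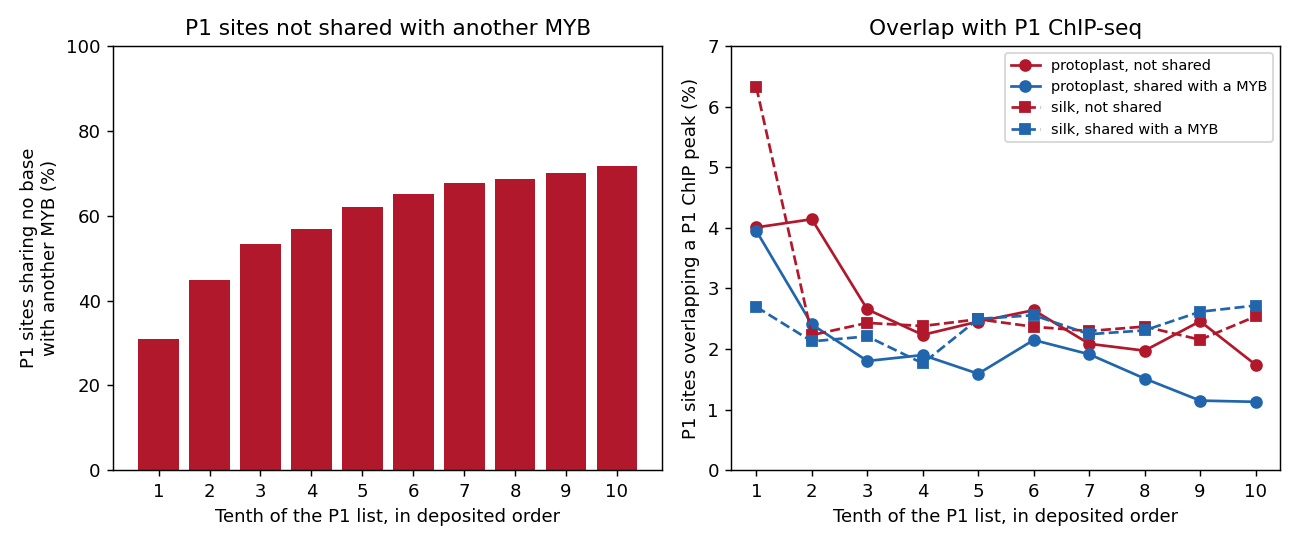
Left, percent of P1 DAP-seq peaks in each 10% of the deposited list that share no base with a MYB40, MYB53 or MYB100 peak, rising from 30.8% to 71.6%. Right, percent of unshared (red) and shared (blue) P1 peaks in each 10% that overlap a P1 ChIP-seq peak of protoplasts (circles, solid lines) or silk (squares, dashed lines); the unshared protoplast values lie above the shared ones in 10 of 10 parts, and the silk value of the first part stands apart at 6.32%.

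The first 100 lines broke this trend, a stretch that was chosen after its values were seen. Of these 100 P1 peaks 93 were unshared, against 53 of the next 300 (17.7%) and 74 of the 442 after those (16.7%). The list opened with chr5:215849947-215850151, chr5:215846936-215847137 and chr1:374941-375187, all 3 unshared and all in the silk ChIP-seq list. Of the 93 sites 79 overlapped a silk ChIP-seq peak (84.9%, interval 76.0% to 91.5%). In the protoplast ChIP-seq list were 0 of 93, which allows a share of up to 3.23% by 3 counts of the total. Among the unshared sites after line 842 the share in silk was 2.38% and in protoplasts 2.49%. The silk share of the first lines thus stood apart from that of the later sites, while 0 of 93 allows the protoplast share of the later sites. A high silk share was not confined to these 93 sites. Of the few shared sites in the first 100 lines, 3 (42.9%) were in the silk list. In lines 101 to 400, 17 of 53 unshared sites were (32.1%), against 2.83% of the shared ones. In lines 401 to 842, 4 of 74 unshared sites were (5.41%). Other DAP-seq factors were also scarce in the first 100 lines: 10 of the 93 unshared sites held any (10.8%), against 52.4% of the unshared sites after line 842. CPP8, present at 14.2% of all unshared sites, was at 0 of the 93. The silk peaks they touched had a median width of 1026 bases and a highest of 4901, against a median of 286 for silk peaks at the later sites. The 93 sites lay in 50 windows of 100 kb on all 10 chromosomes.

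Several sites of the first 10% of the list lay close together. Within that stretch, the window with most unshared sites held 9 of them between bases 79922097 and 79966586 of chromosome 2, and all 9 were in the silk list. A group of 6 at chr1:345411-376593 and another of 6 at chr5:145424186-145476004 were all in the silk list as well. Not every such group was: 4 sites at chr1:159428526-159474990 had 0 in silk. Over the 17 windows with 4 or more unshared sites of the first 10%, 58 of 83 sites were in the silk list (69.9%), against 106 of 2513 elsewhere in that stretch (4.22%). Depth, repeats and copy number at these places were not tested.

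The next question was whether P1 sites that no other MYB shares were also bound by P1 in cells. In 35S:P1 protoplasts 1242 of the 49760 unshared sites overlapped a ChIP-seq peak (2.50%, interval 2.36% to 2.64%), and these touched 16.2% of the 7661 protoplast peaks. For the shared sites the value was 2.16% (2.01% to 2.32%), or 744 sites that touched 9.67% of the protoplast peaks. The unshared value was higher on 9 of 10 chromosomes, all but chromosome 6, where it was 2.14% against 2.56%. It was also higher in 10 of 10 parts of the list, with means over the parts of 2.64% and 1.95%. The gap was narrowest in the first part, at 4.01% against 3.95%, and the last part had 1.74% against 1.13%. The difference was 0.34 percentage points over the whole list (0.13 to 0.54, normal approximation) and 0.62 without the first part. It was smaller when P1 peaks near a MYB peak also counted as shared, at 0.27 (0.07 to 0.48) within 200 bases and 0.18 within 1000 bases, where the interval of -0.03 to 0.40 took in 0. The shared sites were not alike. The 24409 with MYB53 alone stood at 1.96%, the 2822 with MYB40 alone at 2.23% and the 80 with MYB100 alone at 1.25%. Not below the unshared sites were the 4164 with MYB53 and MYB100 (2.98%) and the 2303 with MYB40 and MYB53 (2.56%). Nor were the 676 with all 3 (2.51%) and the 13 with MYB40 and MYB100 (7.69%).

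Peaks of the other factors that touched no P1 peak gave a scale for these values. MYB53 peaks without P1 overlapped the protoplast list at 0.705% (interval 0.643% to 0.770%), MYB100 peaks at 0.903% and MYB40 peaks at 0.657%. The unshared P1 value was 3.54 times that of MYB53, and still 3.49 times when each P1 peak was set to the 200 bases around its centre, the width of the MYB53 peaks. Among the non-MYB factors the lowest was CPP8 at 0.160% and the highest WRKY38 at 1.45%. Both P1 groups thus stood above the peaks without P1 of all 13 other factors in protoplasts. The lists were not alike, however. P1 peaks were 201 to 883 bases wide and protoplast peaks 201 to 876, whereas the peaks of the other DAP-seq factors were all 200 bases. Peaks that touched P1 were also left out of the other factors alone. How far the gap follows from these differences was not tested. The gap to WRKY38 was the smallest, the unshared P1 value being 1.73 times that of WRKY38.

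In F1 silk the picture was flatter. Of the unshared sites 1279 overlapped a silk peak (2.57%, interval 2.43% to 2.71%), touching 5.41% of the 22863 silk peaks, and of the shared sites 2.36% did (2.21% to 2.53%). The difference was 0.21 percentage points, with an interval of -0.01 to 0.42 that took in 0. It was 0.05 without the first 1% of the list, 0.07 without the first 10%, and 0.38 when a MYB peak within 1000 bases counted as shared. Unshared sites were higher on 7 of 10 chromosomes and in 6 of 10 parts of the list. Shared sites with MYB53 and MYB100 stood above them at 3.00%, as did the 80 with MYB100 alone at 5%. The other shared groups stood below, from 0% of 13 sites to 2.51%, with MYB53 alone at 2.29%. MYB53 peaks without P1 reached 1.93% in silk, and over the 13 other factors the values ran from 1.81% for DOF23 to 3.53% for GBP20. Only GBP20, with 86 of 2436 peaks and measured on methylated DNA, stood above the unshared P1 sites. The next highest was NLP14 at 2.49%. In both ChIP-seq lists were 38 unshared sites (0.0764%) and 32 shared sites (0.0928%). Of the unshared sites in the protoplast list 3.06% were also in the silk list, close to the 2.57% of all unshared sites, and of the shared ones 4.30% were, against 2.36% of all shared sites. Of the protoplast peaks themselves 4.26% touched a silk peak. How far this depends on the different controls and callings of the 2 lists was not tested.

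**Figure D2:**
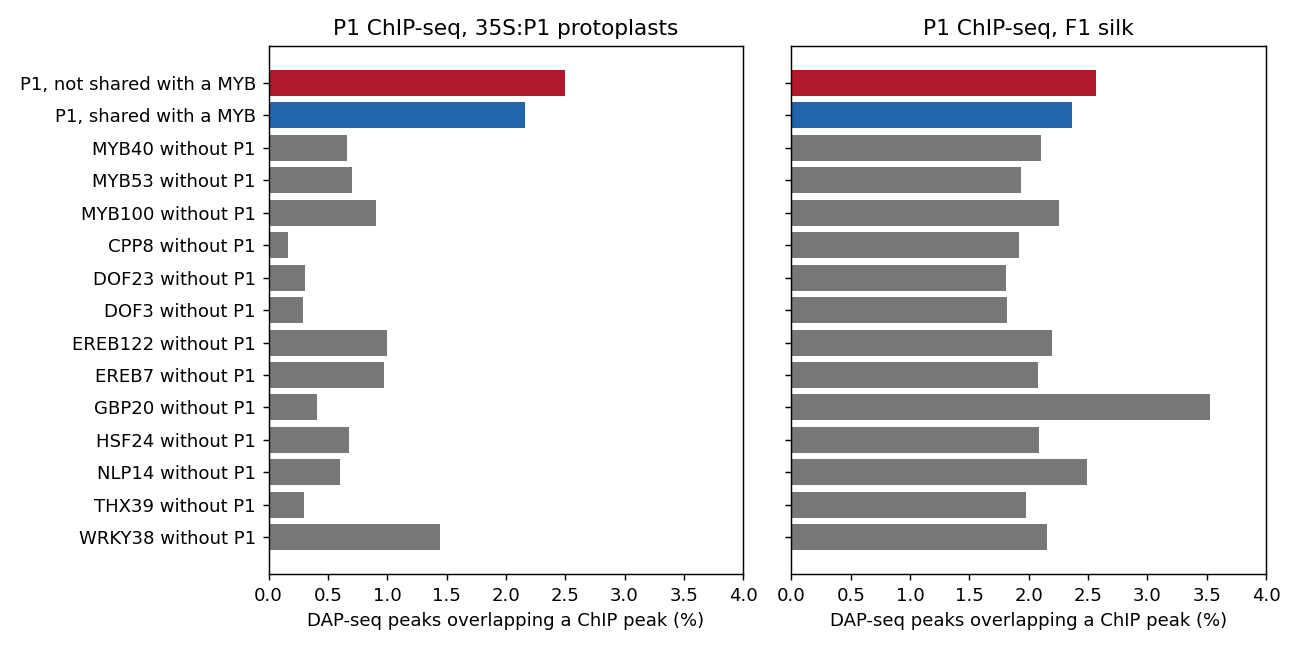
Percent of DAP-seq peaks overlapping a P1 ChIP-seq peak by 1 base or more, for unshared P1 sites (red), shared P1 sites (blue) and the peaks of 13 other factors that touch no P1 peak (grey), 1 list per factor and so without error bars. In protoplasts (left) the unshared P1 sites reach 2.50% and the other factors 0.160% to 1.45%; in silk (right) all lists lie between 1.81% and 3.53%.

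Where a P1 site overlapped a protoplast peak, the centres of both lay close together. For the unshared sites the median distance between centres was 34.2 bases (quartiles 1.5 and 87), and 722 of 1242 lay within 50 bases (58.1%, interval 55.3% to 60.9%). Shared sites had a median of 41.5 bases and 54.7% within 50 bases (51.0% to 58.3%), an interval that overlaps the first. MYB53 sites without P1 had a median of 100 bases and 30.5% within 50 (26.4% to 34.8%). These MYB53 sites were chosen to share no base with a P1 peak. They could not lie at a ChIP-seq centre that a P1 peak covers, so part of this contrast is set by the choice. In silk this centring was not seen. The unshared sites had a median distance of 130 bases and 20.4% within 50 (18.2% to 22.7%), and MYB53 sites without P1 had 115 bases and 21.8% (19.7% to 24.2%). Without the first 10% of the list the silk median was 127 bases. Silk peaks had a median width of 255 bases and protoplast peaks of 252.

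**Figure D3:**
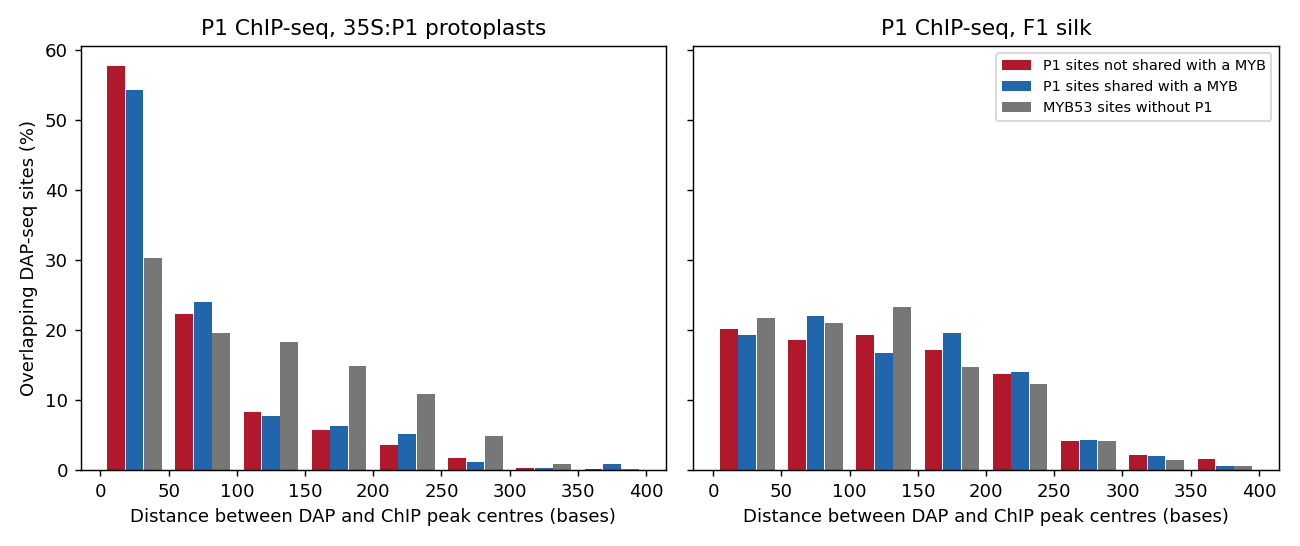
Distance in bases between the centre of a DAP-seq site and the nearest ChIP-seq peak centre, in steps of 50 bases up to 400, as percent of the sites that overlap a ChIP-seq peak, for unshared P1 sites (red), shared P1 sites (blue) and MYB53 sites without P1 (grey). In protoplasts 57.7% of the unshared sites fall in the first step, and in silk 20.2%.

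With distance to the nearest other MYB site the ChIP-seq shares varied, without a steady rise or fall in either tissue. Unshared sites less than 200 bases from a MYB peak were in the protoplast list at 2.60% (interval 2.17% to 3.09%), those at 1000 to 5000 bases at 2.86% (2.63% to 3.11%), and those at 20000 bases or more at 1.79% (1.41% to 2.24%). In silk the same classes had 2.78% (2.34% to 3.29%), 2.13% (1.93% to 2.35%) and 3.68% (3.13% to 4.29%). Of the classes between, that at 200 to 1000 bases had 2.53% (2.25% to 2.83%) in protoplasts and 2.08% (1.83% to 2.35%) in silk. That at 5000 to 20000 bases had 2.02% (1.75% to 2.31%) in protoplasts and 3.40% (3.06% to 3.78%) in silk. Without the first 842 lines the silk values were 2.77% (2.32% to 3.27%) below 200 bases and 2.01% (1.77% to 2.28%) at 200 to 1000. They were 2.02% (1.82% to 2.23%) at 1000 to 5000 bases, 3.20% (2.86% to 3.56%) at 5000 to 20000 and 2.65% (2.19% to 3.18%) at 20000 or more. The protoplast value in the last class was then 1.82%. Toward the ends of the chromosomes the protoplast share was higher, at 2.87% in the first and 3.55% in the last 10% of their length against 1.65% in part 5 of 10 (1.26% to 2.12%), while in silk these were 3.12%, 2.57% and 2.66%. The protoplast pattern was not particular to the unshared sites. Shared sites had 2.67%, 2.54% and 0.932% in the same parts in protoplasts.

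The 5 widest of the 38 sites in both ChIP-seq lists were chr8:39523859-39524234, chr8:85449311-85449653, chr6:148778808-148779145, chr5:5224894-5225202 and chr7:95236385-95236686. Their widths were 376, 343, 338, 309 and 302 bases. The one on chromosome 6 lay 810 bases from a MYB53 peak and the one on chromosome 5 lay 1449 bases from one, while those on chromosomes 8 and 7 lay 7209, 13599 and 15073 bases from the nearest MYB peak. The first and the last also held EREB122, and the one on chromosome 5 held WRKY38. None of the 5 held CPP8, DOF3 or THX39. Over all 38 these were at 0 as well, which allows a share of up to 7.89% by 3 counts of the total and 9.25% by the exact interval. Among all unshared sites in the protoplast list CPP8, DOF3 and THX39 were at 4.99%, 6.12% and 2.50%, shares that 0 of 38 allows. In the silk list they were at 12.6%, 11.9% and 4.22%. EREB122 was at 6 of 38 (15.8%, interval 6.02% to 31.3%), against 12.4% of the protoplast-list sites and 6.96% of the silk-list sites.

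The unshared sites were then compared with the peaks of 10 factors that are not MYBs. Of these sites 23724, or 47.7%, held none of the 10, against 40.6% of the shared sites. In no other list at all, ChIP-seq included, were 22469 (45.2%). The factor most often present was DOF23, a DOF zinc-finger protein, at 21.96% of the unshared sites. It was followed by CPP8, of a family with cysteine-rich DNA-binding domains, at 14.2%, the second DOF factor DOF3 at 13.9%, the heat shock factor HSF24 at 13.8% and WRKY38, of the WRKY family of stress and defence regulators, at 11.3%. EREB122, of the ethylene response factor family, was at 5.91% and THX39, a trihelix factor, at 3.83%. The 3 lists with the fewest peaks gave 0.547% for NLP14, a NIN-like protein of a family known in Arabidopsis for nitrate responses, 0.131% for GBP20 and 0.0362% for EREB7. HSF24 and GBP20 were measured on methylated DNA. These shares move with the length of each list, from 187162 peaks for DOF23 to 2196 for EREB7. As a share of the factor's own peaks, those touching an unshared P1 site were 6.25% for DOF23, 5.15% for CPP8, 6.45% for DOF3, 6.66% for HSF24, 6.002% for WRKY38, 6.99% for THX39 and 7.49% for NLP14, against 2.80% for EREB122, 2.53% for GBP20 and 0.820% for EREB7.

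Against the shared P1 sites, the unshared ones held most of the large factors less often. THX39 stood at 3.83% (interval 3.67% to 4.005%) against 6.59% (6.33% to 6.86%), a ratio of 0.581. CPP8 stood at 14.2% (13.9% to 14.5%) against 20.9% (20.5% to 21.3%), a ratio of 0.678. Both were lower in the unshared sites on 10 of 10 chromosomes and in 10 of 10 parts of the list. DOF23 and DOF3, at 21.96% and 13.9% against 25.4% and 16.0%, were lower on 10 of 10 chromosomes too, and so was HSF24, at 13.8% against 15.4%, though it was higher in 3 of 10 parts of the list. EREB122 went the other way, at 5.91% (5.71% to 6.13%) against 5.34% (5.11% to 5.59%), higher on 10 of 10 chromosomes and in 9 of 10 parts. WRKY38, at 11.3% against 12.4%, was higher on 1 of 10 chromosomes and in 2 of 10 parts of the list. For NLP14, GBP20 and EREB7 the intervals of both groups overlapped.

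**Figure D4:**
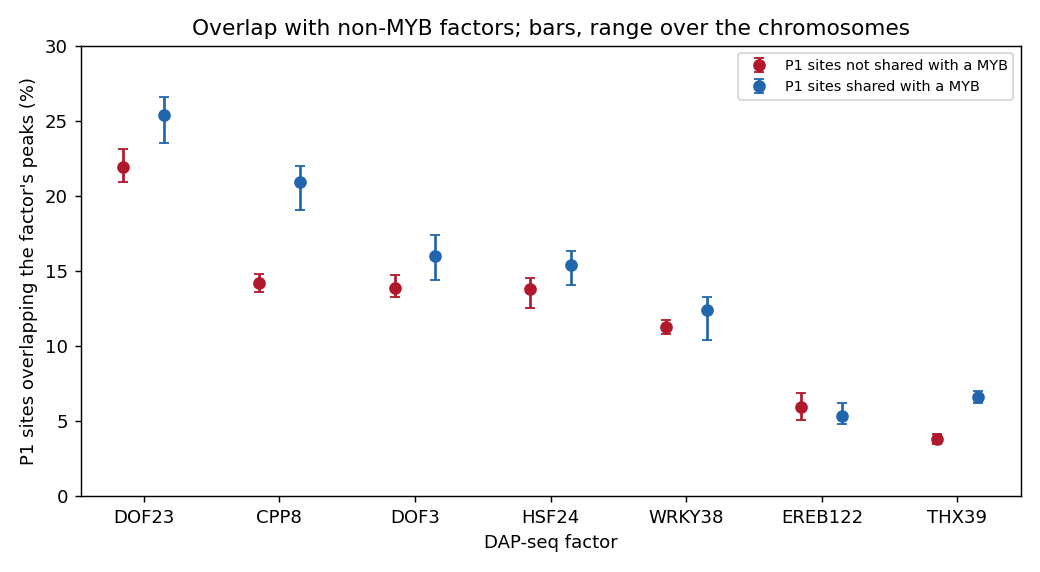
Percent of unshared (red) and shared (blue) P1 DAP-seq sites that overlap a peak of each of the 7 factors with the most sites in common with P1; points are all chromosomes and bars run from the lowest to the highest of 10 chromosomes. CPP8, DOF23 and THX39 show ranges that do not meet, and EREB122 is the one factor of the 7 with the higher point in red.

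Factors at the unshared sites came together unevenly. Of the sites with DOF3, 86.9% also held DOF23, which binds through the same type of domain. CPP8 was present at 35.1% of the sites with THX39, against 14.2% of all unshared sites, while DOF23 was at 15.0% of the sites with EREB122, against 21.96% of all. At least 2 of the 10 factors were present at 23.0% of the unshared sites and at least 4 at 1.83%, or 911 sites, against 28.8% and 2.81% of the shared sites. The 2 sites with the most other lists were chr2:15885127-15885328 and chr8:9617771-9618169. Both held CPP8, DOF23, DOF3, HSF24, THX39 and WRKY38 and a silk ChIP-seq peak. Of the 10 sites with 6 lists the first by position, chr1:98330270-98330472, held the same 6 factors and no ChIP-seq peak. All 3 lay 4470 bases or more from a MYB peak.

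The unshared sites that overlapped a P1 ChIP-seq peak of protoplasts by 1 base or more had a different set of companions from the rest. Of the 1242 sites in the protoplast list 4.99% held CPP8 (interval 3.85% to 6.35%), against 14.4% (14.1% to 14.8%) of the 47277 sites in neither ChIP-seq list. DOF23 was at 10.9% (9.19% to 12.7%) against 22.3%, and DOF3 at 6.12% (4.85% to 7.60%) against 14.1%. EREB122 was higher, at 12.4% (10.6% to 14.4%) against 5.72% (5.52% to 5.94%), and so was WRKY38, at 16.4% (14.4% to 18.6%) against 11.1% (10.8% to 11.4%). HSF24 had intervals that overlapped, at 12.1% (10.3% to 14.0%) and 13.8%. Over the chromosomes the protoplast-list sites ran from 3.33% to 16.9% for EREB122 and from 8.89% to 23.2% for WRKY38. Sites in neither list ran from 5.07% to 6.58% and from 10.6% to 11.6%, so on at least 1 chromosome each order was reversed. For CPP8 and DOF3 the ranges did not meet, with highest values of 6.82% and 10.2% against lowest of 13.8% and 13.6%. Among the factors' own peaks without P1, WRKY38 and EREB122 also had the highest protoplast overlap, 1.45% and 0.999%, and CPP8 and DOF3 the lowest, 0.160% and 0.292%. How much of the difference in companions follows from that was not tested.

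Sites in the silk list lay nearer to the rest. They held CPP8 at 12.6% (10.8% to 14.5%), DOF23 at 19.7% (17.6% to 22.0%), EREB122 at 6.96% (5.63% to 8.49%) and WRKY38 at 12.98% (11.2% to 14.9%). The more other factors a site held, the lower was its share in the protoplast list. It fell from 2.82% with none (23724 sites) to 1.99% with 2 (7422), 1.18% with 3 (3124) and 0.900% with 4 (778). Of the 123 sites with 5 factors and the 10 with 6, 0% were in that list. In silk the classes with none, 2, 3 and 4 had 2.58%, 2.17%, 2.66% and 2.57%, with no such fall. The small classes with 5 and 6 had 1.63% and 20% there.

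**Figure D5:**
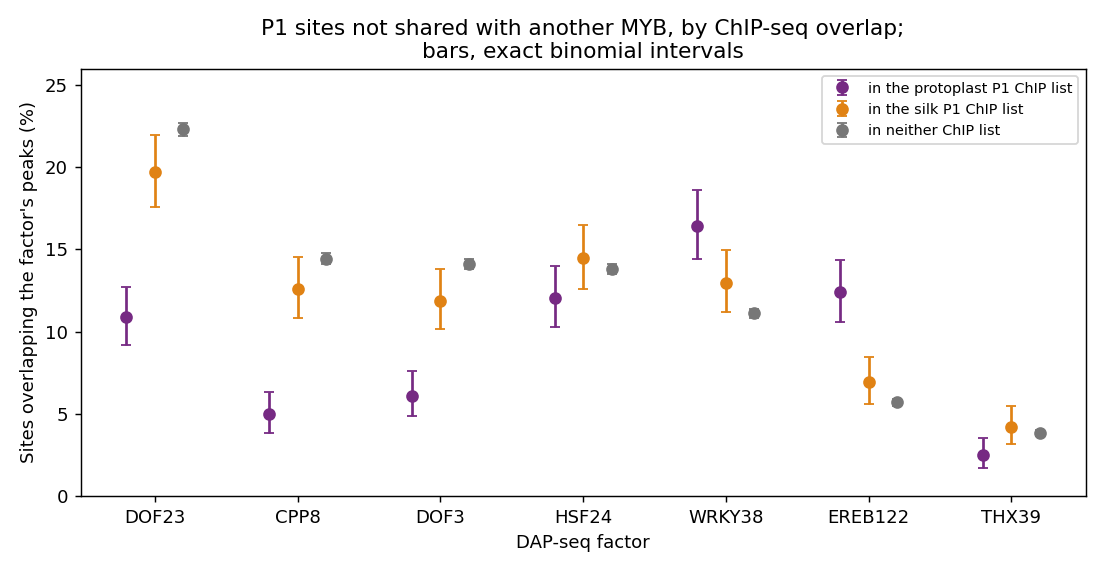
Percent of unshared P1 sites that overlap a peak of each factor, for sites in the protoplast P1 ChIP-seq list (purple, 1242 sites), in the silk list (orange, 1279 sites) and in neither (grey, 47277 sites); bars are 95% exact binomial intervals, which cover counting error only. Protoplast sites lie below the grey points for DOF23, CPP8, DOF3 and THX39, and for HSF24 with bars that overlap. They lie above them for WRKY38 and EREB122.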

How the data were processed

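Peak positions were used as deposited, in peak lists of 14 DAP-seq and 2 ChIP-seq samples. Trimmomatic, Bowtie2 2.3.4.1 and the build B73 RefGen_v4 are named, without a role, per the submitters' processing notes. No source used here names the peak caller, its threshold or how replicates entered a list, and the depth behind a peak is unknown. MYB40 peaks carry a deposited score of unstated scale. Lists were read as half-open intervals, and 1 blank line each was dropped from EREB7 and NLP14. Positions are printed counted from 1.

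Overlap meant 1 shared base or more. Overlaps, distances between peak edges and centres, and Clopper-Pearson intervals were computed with Python 3.11.15, NumPy 2.4.6 and SciPy 1.17.1. The interval functions were checked on simulated intervals and against bedtools 2.31.1. Regions were named by rule: the 3 in most lists, the 3 widest, the first 5 of the densest 100 kb window and the 5 widest in both ChIP-seq lists. The first lines of the P1 list were singled out afterwards. The rule for the sites and the comparisons were chosen with earlier results of these data known. RNA-seq counts were not used, because their gene identifiers could not be placed beside the peaks.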

Additional observations from a re-analysis of the deposited data

How the results depend on the processing

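The share of P1 peaks without another MYB, 59.1%, moved with the rule. It was 63.1% when sharing required 50% of the P1 peak to be covered, 53.4% and 39.3% (33081 sites) when a MYB peak within 200 or 1000 bases counted as shared, and 62.4% without the MYB40 list. Those 4 settings gave 53.0%, 51.9%, 51.4% and 53.1% of unshared sites with a non-MYB factor (52.3% as reported). The difference from shared sites in that share, -7.10 percentage points, became -6.10 with 50% coverage, -6.32 within 1000 bases and -5.66 without MYB40, and the silk share became 2.71% within 1000 bases. When the centre of a P1 peak had to lie inside the other peak, the shares were 2.20% for protoplasts, 1.64% for silk and 32.1% for any factor (difference -5.27). With 50% of the P1 peak covered by the other peak they were 2.21%, 1.65% and 32.3% (-5.06), and with P1 peaks of 200 bases any factor was at 50.9% (-6.29). Alternatives chosen after seeing the data left out lines of the list. Without the first 10%, the share of unshared sites was 62.2%, the protoplast difference 0.618 points and the silk share 2.36%. Without the first 1% these were 59.4%, 0.407 points and 2.38%. In the first 50% alone there were 20857 unshared sites (49.5%), with 2.94% in protoplasts, 2.88% in silk (difference 0.590 points) and 53.2% with a factor (-7.81). The protoplast difference fell to 0.184 points (interval -0.027 to 0.396) when a MYB peak within 1000 bases counted as shared. The silk difference then was 0.376 (0.157 to 0.595). No direction was reversed under these settings. The cause was not tested. A stricter peak score, motif counts and nearby expression were not run, for want of a P1 score, a genome of this build and gene positions. No paired analysis was possible because each factor has 1 peak list and no result comes from a test.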
